A study of Mus musculus with 12 samples.

Results

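Collagen chain genes were examined in mouse EDL (extensor digitorum longus), a muscle of the shank made mainly of fast fibers. A gene was included when its symbol is Col followed by a type number, the letter a and a chain number, and when its mean over the 12 libraries was at least 0.1 FPKM. FPKM is fragments per kilobase of transcript, scaled by depth, so levels can be set side by side between genes. This gave 38 chains of the 43 with such a symbol, among 17752 genes in all. Of the 38 chains, 11 are fibrillar, 7 belong to basement membranes and 20 are of other kinds. The chains just inside the threshold were Col17a1 with a mean of 0.129 FPKM and Col9a2 with 0.1595 FPKM, and those just outside were Col6a4 with 0.0659 FPKM and Col25a1 with 0.0584 FPKM.

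RNA-seq was performed on EDL from male mice in 4 groups of 3 libraries: labelled WT sedentary, labelled strNrip1-/- sedentary, labelled WT trained and labelled strNrip1-/- trained. The strNrip1-/- mice carried floxed alleles of Nrip1, which encodes the nuclear receptor corepressor RIP140, made in C57BL/6J, together with a Cre recombinase driven by the muscle creatine kinase promoter, which acts in heart and skeletal muscle. Littermates served as WT controls. All mice were 8 weeks old at the start. Trained mice then ran voluntarily on wheels for 8 weeks, and sedentary mice did not run. Per the methods of the study, the wheels were taken out of the cages ahead of testing endpoints. The Cre promoter is a muscle promoter, and the connective tissue cells of the muscle are not its target.

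Collagens are proteins of 3 chains wound into a triple helix, in which glycine recurs at a fixed interval along each chain (the Gly-X-Y repeat). Fibrillar collagens, chiefly types I and III, assemble into the fibers of tendon and of the connective tissue sheaths around muscle, type IV forms the network of basement membranes around myofibers and capillaries, and type VI forms beaded filaments between both. In muscle these chains are made mostly by fibroblasts, tendon cells and fibro-adipogenic progenitors, with type IV made also by endothelium and myofibers.

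The libraries corresponded to 20.25 to 29.45 M fragments, estimated from the spacing of low values. At these depths a 2 kb gene at 0.5 FPKM rested on 20.3 to 29.5 fragments. Nrip1 went against the genotype labels, at 2.53 to 4.76 FPKM in the 6 libraries labelled WT and 14.9 to 20.7 FPKM in the 6 labelled strNrip1-/-, so every group is named here by its label. The gene-level value does not separate the deleted exon from the rest of the transcript. Were the labels exchanged in the table, the sign of each comparison between labels would turn, which was not tested. All 12 marker genes of fast myofibers were tested and abundant, summing to 114400 to 182200 FPKM per library, and the 7 cartilage and bone markers in the table summed to no more than 1.60 FPKM. Labelled strNrip1-/- sedentary replicate 2 stood apart in the sum of 10 tendon markers, at 532 FPKM against 273 to 416 FPKM in the other 11 libraries. The 10 adipocyte markers summed to 29.8 to 37.5 FPKM in labelled WT sedentary, 56.7 to 133 FPKM in labelled strNrip1-/- sedentary, 39.9 to 82.3 FPKM in labelled WT trained and 48.8 to 121 FPKM in labelled strNrip1-/- trained libraries, so that the first group lay below the others, as it did for both type I chains. Of the 10 tendon markers, 5 were higher without overlap in labelled WT trained than in labelled WT sedentary libraries, against 7.76% of all genes, and the share of tendon in any collagen value given here was not tested.

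The gene structure of the classes is shown first, because it sets the type I and type III chains apart from the other abundant chains. In fibrillar collagen genes many of the exons that code the helix are 54 nucleotides long, each with 6 Gly-X-Y triplets. The first such exon of each gene is printed from the GENCODE M21 transcripts (GRCm38, coding strand, 5′ to 3′), with the 6 glycine codons in capitals. These chains were chosen because the comparisons turn on the first 5, and Col6a1 and Col15a1 stand for the type VI and basement membrane classes.
Col1a1, chr11:94939904-94939957 (+): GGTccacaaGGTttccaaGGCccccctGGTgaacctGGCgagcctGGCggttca
Col1a2, chr6:4515481-4515534 (+): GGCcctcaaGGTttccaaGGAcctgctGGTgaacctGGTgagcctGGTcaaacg
Col3a1, chr1:45325360-45325413 (+): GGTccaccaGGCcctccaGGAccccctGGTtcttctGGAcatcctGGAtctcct
Col5a2, chr1:45434892-45434945 (-): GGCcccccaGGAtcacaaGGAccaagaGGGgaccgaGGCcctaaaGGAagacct
Col11a2, chr17:34051480-34051533 (+): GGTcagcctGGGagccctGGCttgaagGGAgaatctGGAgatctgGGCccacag
Col6a1, chr10:76719623-76719676 (-): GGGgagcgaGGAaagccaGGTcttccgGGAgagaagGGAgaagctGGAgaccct
Col15a1, chr4:47292320-47292373 (+): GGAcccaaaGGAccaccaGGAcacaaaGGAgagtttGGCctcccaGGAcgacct

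The first 54-nt exons of Col1a1 and Col1a2 were identical at 42 of 54 bases, and those of Col1a1 and Col3a1 at 35 of 54. The other fibrillar chains matched Col1a1 at 24 (Col5a1) to 30 (Col2a1) of 54. The basement membrane chains compared matched it at 25 (Col4a4) to 32 (Col4a3), with Col15a1 at 28. Col4a1 and Col4a2, the most abundant chains of that class, were not among those compared. Beyond Col1a2 and Col3a1, this identity therefore did not separate the fibrillar from the basement membrane chains that were compared. Part of every match was fixed in advance, because each exon was chosen for its glycine codons. Fibrillar genes held 21 to 33 internal coding exons of 54 nt, with 21 in Col1a1 and 24 each in Col1a2 and Col3a1. Basement membrane genes held 1 to 3 and type VI genes 2 to 3. The longest uninterrupted Gly-X-Y run was 337 to 344 triplets in 9 of the 11 fibrillar chains, 216 in Col24a1 and 217 in Col27a1. In the 27 chains of the other classes it was 23 to 113 triplets. Among these, Col22a1, a chain of myotendinous junctions, was closest to the fibrillar genes in exon structure, with 28 exons of 54 nt, but its longest run was 113 triplets.

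**Figure D1:**
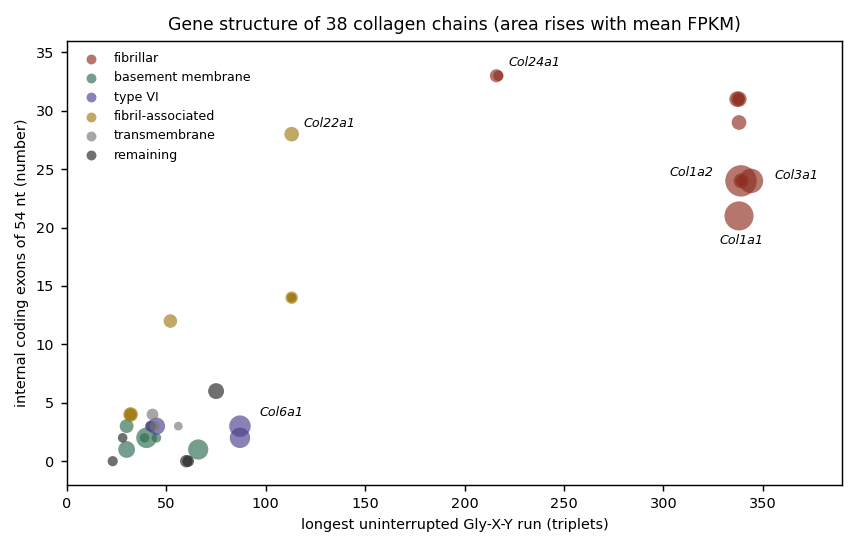
Each point is 1 of 38 collagen chain genes, with the longest uninterrupted Gly-X-Y run in its coding sequence (in triplets) on the horizontal axis and its number of internal coding exons of 54 nt on the vertical axis. Colors give the class and the area rises with mean FPKM. The 11 fibrillar genes lie at runs of 216 triplets or more, and the other 27 at 113 or fewer.

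Levels of the chains were then compared over all 12 libraries. The mean level ran from 0.129 FPKM for Col17a1, a transmembrane collagen of epithelia, to 123 FPKM for Col1a2. Type I collagen, the main collagen of tendon and connective tissue, had the most abundant chains, Col1a2 and Col1a1 (mean 88.8 FPKM), followed by Col3a1 (mean 42.4 FPKM), the chain of type III collagen. These were followed by Col6a1 (24.0 FPKM), Col4a1 (19.8 FPKM), Col6a2 (19.1 FPKM) and Col4a2 (18.3 FPKM). Together the 38 chains summed to between 310 and 534 FPKM per library, which is 0.0290% to 0.0448% of all FPKM and 0.0523% to 0.0817% of the FPKM of nuclear genes. The type I chains alone held 43.5% to 59.6% of the collagen FPKM.

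**Figure D2:**
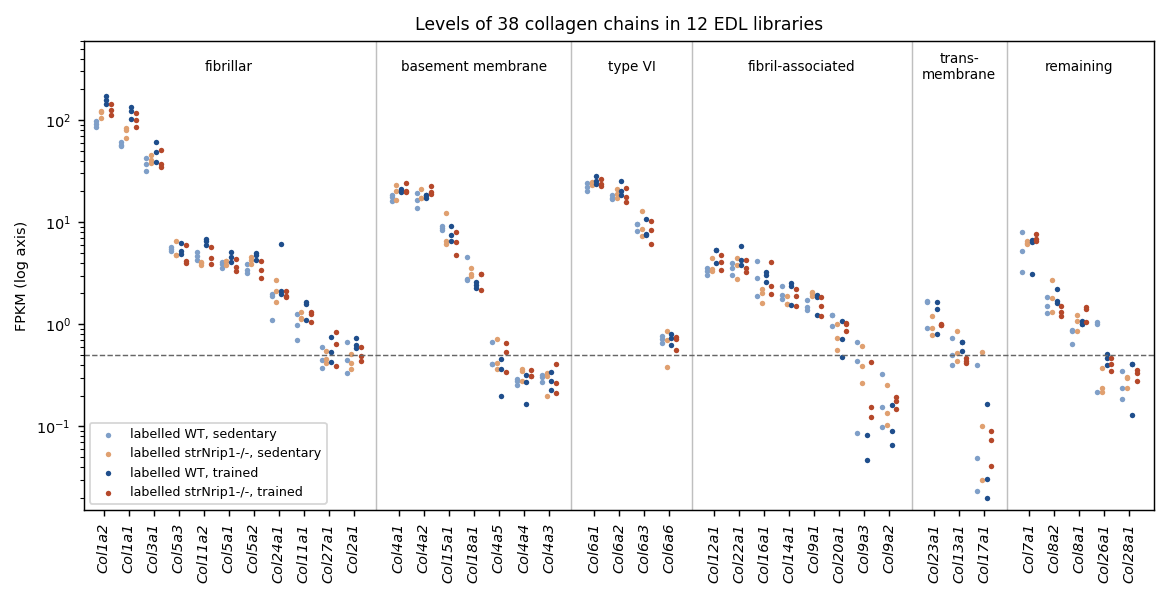
Each point is the FPKM (log axis) of 1 collagen chain in 1 library, by class and, within a class, by falling mean. Colors give the 4 groups and the dashed line is the 0.5 FPKM mean above which a chain was tested. Col9a3 in labelled WT trained replicate 1 is listed at 0 and is not drawn. The chains span from 0.0199 FPKM (Col17a1) to 171 FPKM (Col1a2) in single libraries.

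Of the 38 chains, 30 had a mean of at least 0.5 FPKM and were tested, namely all 11 fibrillar, 4 of 7 basement membrane and 15 of 20 other chains. The test was limma on log2(FPKM + 0.5) over 12744 genes, and a gene was called at a Benjamini-Hochberg adjusted p under 0.05 and a fold change above 1.2. No collagen chain was called in any of the 5 main comparisons. The comparisons share libraries and are not independent. Fewer cells of a type and less RNA per cell cannot be told apart in these bulk samples.

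To ask how training bore on collagen expression, trained and sedentary libraries labelled WT were compared first. Of all genes tested 0% were called, against 0 of 30 collagen chains, but the type I chains ranked 1 (Col1a1) and 3 (Col1a2) by p among all 12744 genes. At an unadjusted p under 0.05 were 8 of 30 chains, all higher in trained libraries, against 8.33% of all genes. Of the 30 chains, 7 were higher without overlap of the groups, against 7.76% of all genes, and 1 was lower without overlap (Col18a1), against 6.5% of all genes. The median log2 difference was 0.20 over the 30 chains and 0.39 over the 11 fibrillar chains, against 0.00 over all genes.

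Col1a1 (ENSMUSG00000001506, chromosome 11, 94936224 to 94953042, plus strand), which codes the α1 chain of type I collagen, was at 57.0, 60.4 and 55.7 FPKM in sedentary libraries labelled WT and at 123, 133 and 103 FPKM in trained libraries labelled WT. The lowest trained library lay above the highest sedentary one by a wide margin. The group means were 57.7 ± 2.42 and 119.6 ± 15.3 FPKM (SD, n = 3 each), a log2 difference of 1.04 ± 0.13 (SE) or 2.05-fold. Its adjusted p was 0.0593 by limma, just short of the threshold, at an unadjusted p of 6.6e-06.

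Col1a2 (ENSMUSG00000029661, chromosome 6, 4504814 to 4541544, plus strand), which codes the α2 chain of the same molecule, was at 91.5, 97.25 and 84.7 FPKM in sedentary libraries labelled WT and 156, 171 and 143 FPKM in trained libraries labelled WT. Here too the groups did not overlap. The log2 difference was 0.78 ± 0.11 (SE), or 1.72-fold, with an adjusted p of 0.0593. The side of the threshold on which these chains fell depended on single libraries: both were past it without labelled WT trained replicate 1 (adjusted p = 0.0364 for Col1a1 and 0.0423 for Col1a2) and without labelled strNrip1-/- trained replicate 3 (0.0317 and 0.0415), and Col1a1 alone without labelled WT trained replicate 3 (0.0294). Without labelled WT sedentary replicate 3 the adjusted p of both was 0.314, with differences of 1.01 and 0.73.

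In the libraries labelled strNrip1-/- the same chains differed less between trained and sedentary. Col1a1 was at 66.1, 84.0 and 80.6 FPKM in the sedentary and 118, 99.3 and 85.8 FPKM in the trained libraries. The groups did not overlap, though the lowest trained and highest sedentary values nearly met. The log2 difference was 0.39 ± 0.13 (SE), with an unadjusted p of 0.0128 and an adjusted p of 0.297. Col1a2 was at 106, 123 and 121 FPKM in the sedentary and 145, 126 and 111.5 FPKM in the trained libraries, which overlapped, with a log2 difference of 0.12 ± 0.11 (SE; 95% interval -0.11 to 0.36).

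Over the chains, this comparison called 0 of 30, as it called 0% of all genes. At an unadjusted p under 0.05 was 1 of 30 (Col1a1), against 12.1% of all genes. Higher without overlap were 2 chains (Col1a1 and Col7a1, the chain of the anchoring fibrils), against 9.4% of all genes, and lower was 1 (Col9a1), against 7.5% of all genes. The median difference of the chains was 0.03, and it was 0.16 when the libraries were rescaled to the same FPKM sum, which moved the median of all genes by a like amount, to 0.16.

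The difference between these training effects was tested as an interaction. None of the 30 chains was called, and 0% of all genes were. At an unadjusted p under 0.05 were 4 chains, against 7.76% of all genes. They were Col1a1 with an interaction of -0.65 ± 0.19 (SE), Col1a2 with -0.66 ± 0.15, Col5a2 with -0.64 ± 0.18 and Col20a1 with 0.63 ± 0.27. The lowest adjusted p was 0.437, for Col1a2, so a difference in training effect between the labels was not shown. The median interaction of the 30 chains was -0.18, and under a rescaling to the same FPKM sum it was 0.01, while the median of all genes moved from 0.01 to 0.20.

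**Figure D3:**
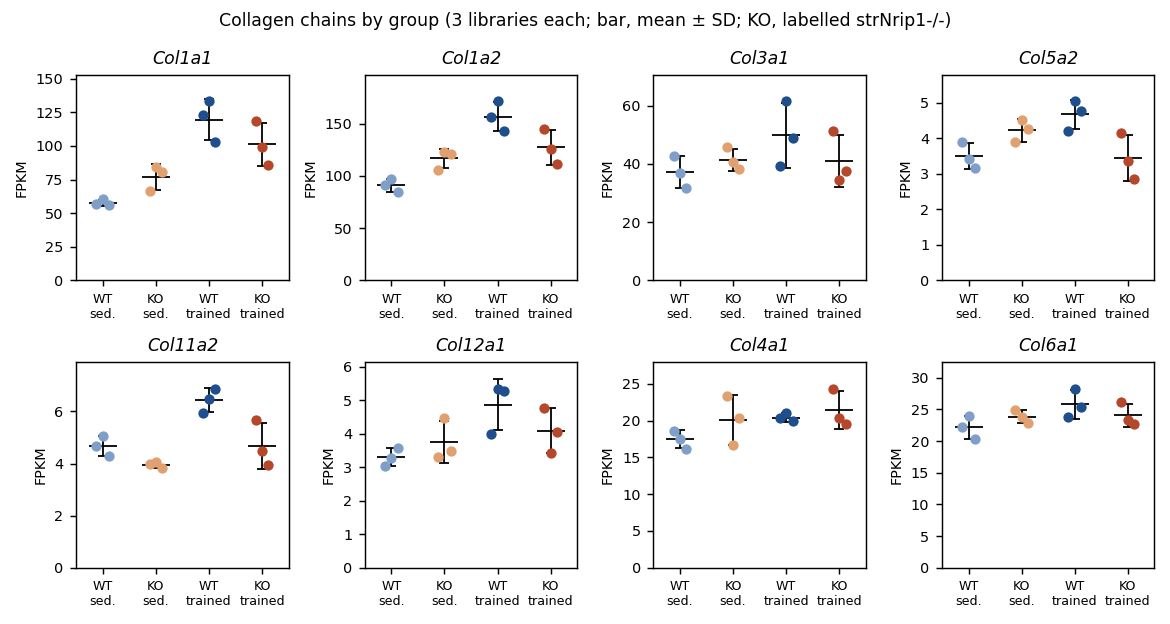
FPKM of 8 collagen chains in each library, by group (points, 3 libraries per group; bars, mean ± SD; KO, labelled strNrip1-/-; each vertical axis starts at 0). Col1a1 and Col1a2 in the labelled WT trained libraries lie above all labelled WT sedentary libraries, Col5a2, Col11a2 and Col12a1 show a smaller separation of these groups, and Col3a1 and Col6a1 overlap.

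Averaged over both labels, a contrast chosen after seeing the data, training was tested over all 12 libraries. Col1a1 rose by 0.71 ± 0.09 on the log2 scale (SE), with an adjusted p of 0.0227, as 1 of 30 chains called against 0.118% of all genes. All 6 trained libraries (85.8 to 133 FPKM) lay above all 6 sedentary libraries (55.7 to 84.0 FPKM). The adjusted p of Col1a1 passed the threshold in 7 of 12 fits that left out 1 library. It did not do so without labelled WT sedentary replicate 2 (0.0616) or 3 (0.0894), labelled strNrip1-/- sedentary replicate 2 (0.0641), labelled WT trained replicate 2 (0.0572) or labelled strNrip1-/- trained replicate 2 (0.0629). Col1a2 had a difference of 0.45 ± 0.08 (SE) and an adjusted p of 0.0604.

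The type I chains also differed in proportion. Type I collagen is in the main a heterotrimer with more α1 than α2 chains, but the Col1a2 transcript was the more abundant per length in all 12 libraries. The Col1a2 to Col1a1 ratio of FPKM in sedentary libraries was 1.61, 1.61 and 1.52 under the WT label and 1.60, 1.47 and 1.51 under the strNrip1-/- label, and in trained libraries it was 1.27, 1.29 and 1.39 and then 1.23, 1.27 and 1.30 under the same labels. The ratio was lower in all 6 trained libraries (1.23 to 1.39) than in all 6 sedentary libraries (1.47 to 1.61). As a ratio within a library it does not depend on how libraries were scaled. It is 1 of 9 ratios computed, was singled out after its values were seen and was not tested. The Col3a1 to Col1a1 ratio was also lower in trained than in sedentary libraries within each label, at 0.320 to 0.476 against 0.569 to 0.75 in labelled WT and at 0.347 to 0.436 against 0.475 to 0.690 in labelled strNrip1-/-. It has the same denominator, Col1a1, so these ratios are not independent, and it was not tested.

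**Figure D4:**
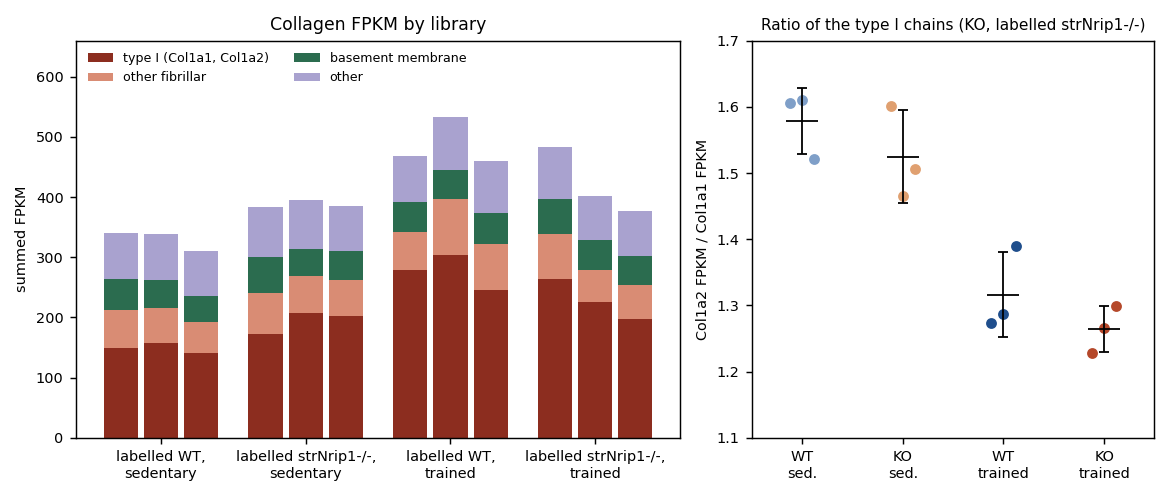
Left, summed FPKM of collagen chains in each library (1 bar per library, 3 per group), split into type I, other fibrillar, basement membrane and other chains. Right, the ratio of Col1a2 to Col1a1 FPKM in each library (points; bars, mean ± SD; KO, labelled strNrip1-/-; the axis does not start at 0). The type I part is the main part that varies between libraries, and the ratio lies at 1.47 to 1.61 in sedentary and at 1.23 to 1.39 in trained libraries.

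The sums by class show how far this reached. In sedentary libraries fibrillar chains summed to 207 ± 13.2 FPKM under the WT label and 257 ± 15.1 FPKM under the strNrip1-/- label, and in trained libraries to 353.5 ± 38.7 and 291 ± 44.1 FPKM (SD, n = 3 each). Basement membrane chains summed to 44.0 to 60.8 FPKM in all 12 libraries, with group means of 47.1 to 52.1 FPKM. The remaining chains summed to 73.4 to 89.4 FPKM. The mean fibrillar share of collagen FPKM was 62.8% in labelled WT sedentary and 72.4% in labelled WT trained libraries. Under the strNrip1-/- label it was 66.3% in sedentary and 68.9% in trained libraries.

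Among the other fibrillar chains, Col3a1 was at 42.7, 36.9 and 31.7 FPKM in sedentary libraries labelled WT and 39.2, 61.5 and 49.05 FPKM in trained libraries labelled WT, with a log2 difference of 0.41 ± 0.18 (SE). These groups overlapped. Under the strNrip1-/- label it was at 45.7, 40.6 and 38.3 FPKM in sedentary and 51.3, 34.5 and 37.45 FPKM in trained libraries, which overlapped as well. Col24a1, a chain of developing bone and cornea, had the next largest difference after Col1a2 in labelled WT, at 0.73 ± 0.33 (SE). It rested on 1 library: labelled WT trained replicate 2 was at 6.09 FPKM and the other 11 libraries at 1.095 to 2.725 FPKM, and without it the difference was 0.27. Its difference between labels in trained libraries likewise moved from -0.51 to -0.05 without that library.

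Col11a2, Col5a2 and Col12a1 were singled out after their values were seen, Col11a2 also by the rule on the largest differences. Col11a2, a chain of type XI collagen, which sits within fibrils and limits their width, was at 4.68, 5.05 and 4.29 FPKM in sedentary libraries labelled WT and 5.94, 6.48 and 6.87 FPKM in trained libraries labelled WT, a log2 difference of 0.42 ± 0.12 (SE; adjusted p = 0.414). Its sedentary libraries under the strNrip1-/- label were at 3.97, 4.07 and 3.82 FPKM, below all others but 1 trained library of that label. Col5a2, of the type V collagen that starts fibrils, was at 3.89, 3.42 and 3.17 against 4.21, 5.04 and 4.76 FPKM, with a difference of 0.37 ± 0.13 (SE). Col12a1, which codes a collagen on the surface of fibrils, was at 3.03, 3.29 and 3.57 against 3.97, 5.34 and 5.28 FPKM, with a difference of 0.49 ± 0.15 (SE). In each of these 3 chains the labelled WT trained libraries lay above the labelled WT sedentary ones. The rest of the fibrillar class did not show this, with overlapping groups for Col5a1, Col5a3, Col11a1, Col27a1 and the cartilage chain Col2a1.

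The labels were then compared within a training state. Between sedentary libraries 0 of 30 chains were called, against 3.51% of all genes. At an unadjusted p under 0.05 were Col1a1 and Col1a2, against 16.3% of all genes. Higher without overlap in labelled strNrip1-/- were 3 chains (Col1a1, Col1a2 and Col9a1), against 9.79% of all genes, and lower was 1 (Col11a2), against 10.9%. The difference of Col1a1 was 0.41 ± 0.13 (SE; adjusted p = 0.136), from 57.7 ± 2.42 to 76.9 ± 9.48 FPKM, and that of Col1a2 was 0.36 ± 0.11 (SE; adjusted p = 0.107), from 91.15 ± 6.28 to 117 ± 9.44 FPKM.

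Labelled strNrip1-/- sedentary replicate 2, the library with the high tendon sum, held the highest Col1a1 value of its group, 84.0 FPKM. Without it the differences were 0.34 for Col1a1 and 0.32 for Col1a2. Both chains passed the threshold once the nuclear genes of every library were set to an equal sum (adjusted p = 0.0467 and 0.0324). With all genes set to an equal sum instead, the differences were 0.25 (adjusted p = 0.24) and 0.20 (adjusted p = 0.273). Under a rescaling to the same sum of all genes the median of the 30 chains moved from 0.09 to -0.04, as the median of all genes moved from 0.00 to -0.14.

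Between trained libraries the direction was the other way for most chains. None of 30 was called, against 5.98% of all genes, and 3 were at an unadjusted p under 0.05, all lower in labelled strNrip1-/-, against 21.1% of all genes. Lower without overlap were 4 chains (Col5a2, Col8a2, Col11a2 and Col13a1), against 13.4% of all genes, and higher was 1 (Col4a2), against 13.9%. The point estimate was below 0 in 23 of 30 chains and in 10 of 11 fibrillar chains, with medians of -0.19 and -0.25 against 0.01 for all genes, and both counts stayed the same under the 3 other scalings tried.

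Col11a2 had the lowest adjusted p of the chains here, 0.0607. Its trained libraries were at 5.94, 6.48 and 6.87 FPKM under the WT label and 5.66, 4.48 and 3.925 FPKM under the strNrip1-/- label, which did not overlap, with a log2 difference of -0.43 ± 0.12 (SE). Without labelled strNrip1-/- trained replicate 1, the highest of its group, the difference was -0.56 with an adjusted p of 0.0194, the only 1 of 12 fits without 1 library that passed. Without replicate 3 of that group it was -0.32 with an adjusted p of 0.208. Col5a2 differed by -0.40 ± 0.13 (SE; adjusted p = 0.0992) and Col1a2 by -0.30 ± 0.11 (SE; adjusted p = 0.124), though the Col1a2 groups overlapped. Col1a1 overlapped as well, at 119.6 ± 15.3 and 101 ± 16.3 FPKM. Averaged over both training states, again a contrast chosen after seeing the data, Col11a2 fell by 0.32 on the log2 scale in labelled strNrip1-/- (SE 0.09, adjusted p = 0.0329), as 1 of 30 chains called against 8.8% of all genes. It passed the threshold in only 3 of 12 fits that left out 1 library, those without labelled WT sedentary replicate 3, labelled WT trained replicate 1 or labelled strNrip1-/- trained replicate 1.

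**Figure D5:**
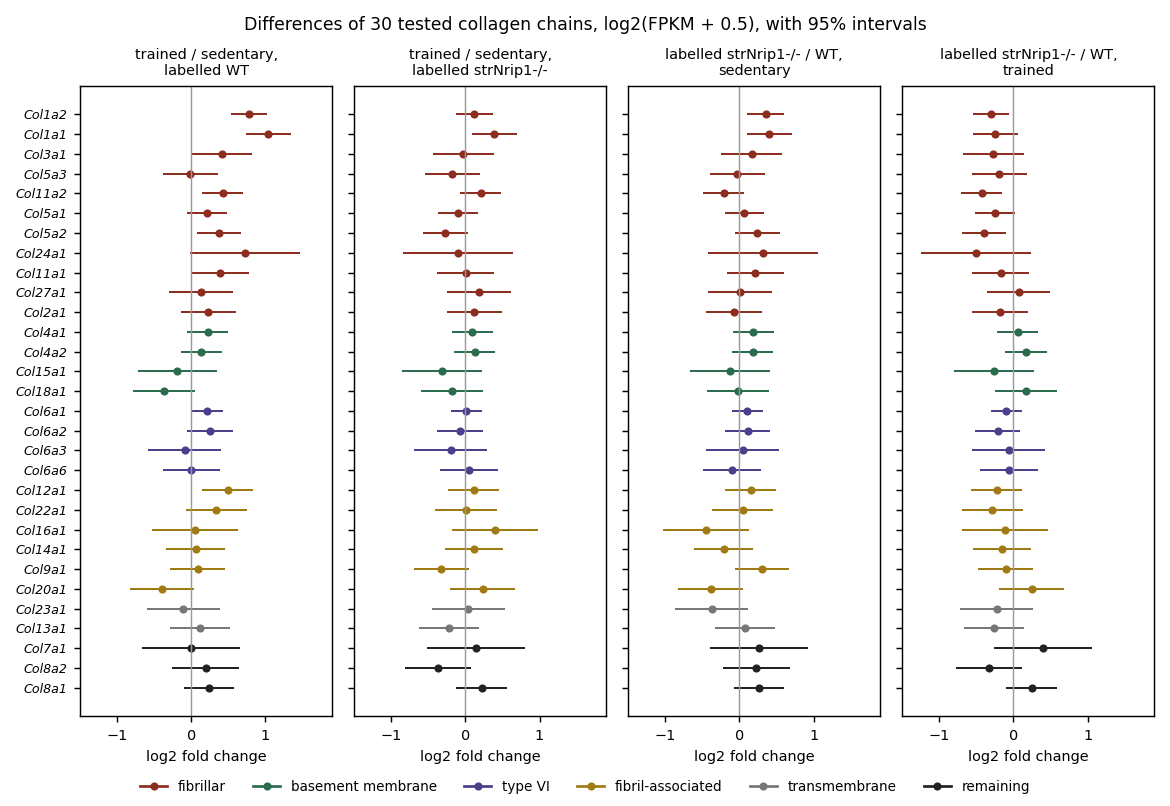
Log2 differences of the 30 tested chains on the log2(FPKM + 0.5) scale, with 95% intervals, in the 4 comparisons between groups. Colors give the class. The intervals of Col1a1 and Col1a2 lie furthest from 0 in labelled WT trained against sedentary libraries, and those of the basement membrane chains include 0 in all 4 comparisons.

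Of the basement membrane chains, Col4a1 and Col4a2 code the 2 chains of the common type IV network. Their genes lie head to head on chromosome 8 (11198423 to 11312826 on the minus strand and 11312805 to 11449287 on the plus strand) and their exons share 22 bases, in which reads of the 2 genes cannot be told apart without strand. Col4a1 was at 18.7, 17.5 and 16.2 FPKM in sedentary libraries under the WT label and 23.3, 16.6 and 20.3 FPKM under the strNrip1-/- label, and trained libraries held 20.3, 21.04 and 19.9 and then 24.3, 20.3 and 19.6 FPKM under these labels. Of the 4 comparisons between groups, only trained against sedentary under the WT label was without overlap. Col4a2 was at 19.2, 16.4 and 13.8 FPKM in sedentary libraries labelled WT, 21.0, 17.4 and 17.4 FPKM in sedentary libraries labelled strNrip1-/-, 18.5, 17.1 and 18.3 FPKM in trained libraries labelled WT and 22.4, 19.6 and 18.9 FPKM in trained libraries labelled strNrip1-/-. Its trained libraries did not overlap between the labels, with a log2 difference of 0.17 ± 0.12 (SE; adjusted p = 0.475). The Col4a1 to Col4a2 ratio was 0.956 to 1.23 in all libraries, with no group apart from the others.

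Col15a1 and Col18a1 code the multiplexin collagens, which anchor basement membranes. Col15a1 in sedentary libraries was at 9.18, 8.35 and 8.69 FPKM under the WT label and 12.3, 6.14 and 6.58 FPKM under the strNrip1-/- label, where replicate 1 stood far above the others. In trained libraries it was at 7.48, 6.48 and 9.07 FPKM and at 7.98, 4.81 and 6.42 FPKM under the same labels. The groups overlapped in all 4 comparisons. Col18a1 was at 2.69, 2.78 and 4.603 FPKM in sedentary libraries labelled WT and 2.58, 2.25 and 2.44 FPKM in trained libraries labelled WT. It was lower without overlap, with a log2 difference of -0.37 ± 0.18 (SE; adjusted p = 0.643).

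The 3 chains of the main type VI heterotrimer stayed close in all groups. Col6a1 in sedentary libraries was at 22.3, 24.0 and 20.3 FPKM under the WT label and 24.9, 23.8 and 22.9 FPKM under the strNrip1-/- label, and in trained libraries at 23.8, 28.3 and 25.4 FPKM and at 26.2, 23.4 and 22.75 FPKM. Col6a2 was at 16.9, 18.6 and 17.4 FPKM and 19.0, 21.3 and 17.2 FPKM in the sedentary groups, and at 18.4, 25.1 and 20.3 FPKM and 21.4, 15.8 and 17.5 FPKM in the trained groups, in the same order of labels. Col6a3, the longest of these chains, was at 9.60, 8.18 and 9.51 FPKM and 12.9, 7.36 and 8.64 FPKM in the sedentary groups, and at 7.56, 7.60 and 10.6 FPKM and 10.25, 6.13 and 8.41 FPKM in the trained groups. In none of the 4 comparisons were the groups of these 3 chains apart. The difference of Col6a1 between trained and sedentary libraries labelled WT, 0.21 ± 0.09 (SE), was small and its groups overlapped. Col6a3 varied mostly within groups, from 7.36 to 12.9 FPKM among the labelled strNrip1-/- sedentary libraries alone. Col6a6 was at 0.385 to 0.866 FPKM.

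Among the other chains, Col7a1 in sedentary libraries was at 7.94, 5.24 and 3.21 FPKM under the WT label and 6.47, 6.04 and 6.30 FPKM under the strNrip1-/- label, and in trained libraries at 6.45, 3.10 and 6.71 FPKM and at 6.48, 7.64 and 6.82 FPKM. It was spread widely within both labelled WT groups and narrowly within the others. Col16a1, a fibril-associated chain, was at 4.14, 1.89 and 2.84 FPKM and 2.20, 2.01 and 1.62 FPKM in the sedentary groups, in that order of labels, and at 3.26, 2.61 and 3.05 FPKM and 2.36, 4.10 and 1.98 FPKM in the trained groups. Its difference between labels in sedentary libraries, -0.45 ± 0.26 (SE), was the largest of the 30 chains in that comparison, but the groups overlapped. Col20a1, also fibril-associated, was at 0.951, 1.23 and 1.22 FPKM and 0.726, 0.997 and 0.555 FPKM in the sedentary groups, and at 0.482, 1.08 and 0.724 FPKM and 0.864, 1.01 and 1.03 FPKM in the trained groups. Its groups overlapped in all 4 comparisons. Col8a2, of the type VIII network of vessel walls and cornea, was at 1.83, 1.27 and 1.52 FPKM and 1.33, 2.71 and 1.79 FPKM in the sedentary groups, and at 1.69, 1.60 and 2.20 FPKM and 1.51, 1.31 and 1.22 FPKM in the trained groups. It did not overlap between the labels in trained libraries, with a difference of -0.33 ± 0.20 (SE). Its partner Col8a1 had a difference of 0.25 ± 0.15 (SE) in the same comparison. The adjusted p by limma was 0.382 for Col8a2 and 0.39 for Col8a1. The Col8a2 to Col8a1 ratio was 0.820 to 1.26 in labelled strNrip1-/- trained libraries against 1.443 to 2.88 in the other 9 libraries. This ratio of low values was also singled out after its values were seen and was not tested. The transmembrane chains Col13a1, found at neuromuscular junctions, and Col23a1 were at 0.399 to 0.860 and 0.775 to 1.68 FPKM.

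Genes that act on collagens were read from lists by role. Of 22 tested genes for collagen modification and folding in the endoplasmic reticulum, 3 were called, all lower in labelled strNrip1-/- in the trained comparison, where 5.98% of all genes were called. Fkbp14, a prolyl isomerase that acts on procollagen, was at 4.93, 4.98 and 4.51 FPKM in trained libraries labelled WT and 2.92, 2.41 and 2.37 FPKM in those labelled strNrip1-/-. It fell by 0.79 on the log2 scale (SE 0.12, adjusted p = 0.00305) and stayed called in all 12 fits that left out 1 library. Hsp90b1, a chaperone, fell by 0.36 (SE 0.08, adjusted p = 0.0208), and Tmem38b, a cation channel of the endoplasmic reticulum, fell by 0.38 (SE 0.07, adjusted p = 0.0125). These 2 lost the call under a rescaling to equal FPKM sums (adjusted p = 0.201 and 0.148), and without single libraries, with an adjusted p of up to 0.0941 for Hsp90b1 (without labelled strNrip1-/- trained replicate 3) and 0.0575 for Tmem38b (without replicate 2 of that group). The median of the 22 genes was -0.14 there.

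In the other 4 comparisons none of the 22 was called, against 3.51% of all genes between labels in sedentary libraries and 0% in the rest. In labelled WT trained against sedentary libraries Fkbp14 had a difference of 0.50 ± 0.12 (SE; adjusted p = 0.373), and in labelled strNrip1-/- one of -0.46 ± 0.12 (SE; adjusted p = 0.21), each without overlap of the groups. The collagen chaperone Serpinh1 (HSP47) was at 22.8 to 34.1 FPKM over the libraries.

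Of 20 tested matrix proteins that bind fibrils, 2 were called in the trained comparison of the labels, both small leucine-rich proteoglycans, against 5.98% of all genes. Kera (keratocan), which is also on the tendon list, was at 13.6, 12.2 and 11.8 FPKM in trained libraries labelled WT and 8.06, 7.58 and 7.67 FPKM in those labelled strNrip1-/-, and fell by 0.66 on the log2 scale (SE 0.12, adjusted p = 0.00982). It stayed called in all 12 fits that left out 1 library. Ogn (osteoglycin) fell by 0.44 (SE 0.10, adjusted p = 0.0266), though not under a rescaling to the same sum (adjusted p = 0.111) and in only 8 of 12 fits that left out 1 library, the highest adjusted p being 0.103 without labelled strNrip1-/- trained replicate 3. In labelled WT trained against sedentary libraries Kera had a difference of 0.74 ± 0.12 (SE; adjusted p = 0.0866). Sparc, a collagen-binding matricellular protein, was at 153 to 246 FPKM.

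Of 16 tested genes of TGF-beta signalling, a main inducer of collagen genes, 3 were called in the trained comparison of the labels, against 5.98% of all genes. The receptor Tgfbr1 was at 4.11, 4.67 and 4.07 FPKM in trained libraries labelled WT and 2.61, 2.61 and 2.92 FPKM in those labelled strNrip1-/-, and fell by 0.57 (SE 0.10, adjusted p = 0.00895). Smad3, which carries the signal to the nucleus, fell by 0.62 (SE 0.12, adjusted p = 0.0114), and Ltbp4, which binds latent TGF-beta in the matrix, rose by 0.40 (SE 0.10, adjusted p = 0.042). The call of Ltbp4 held in 3 of 12 fits that left out 1 library, with an adjusted p of up to 0.159 without labelled strNrip1-/- trained replicate 3. Smad3 lost it without that same library (0.0567), and Tgfbr1 and Smad3 were at 0.0502 and 0.0664 under a rescaling to the same sum.

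No gene was called in any of the 5 comparisons among 10 tested genes of procollagen cleavage and cross-linking, 14 of collagen breakdown and its inhibitors, 6 collagen receptors and 11 basement membrane partners. Of all genes, 3.51% (sedentary) and 5.98% (trained) were called between labels, and 0% in the training comparisons and the interaction. Their medians in labelled WT trained against sedentary libraries were 0.21, 0.04, 0.12 and 0.03, and in the trained comparison of the labels -0.25, 0.00, -0.10 and 0.04. At an unadjusted p under 0.05 in the first of these were 3 of the 10 cleavage and cross-linking genes, all higher in trained libraries, and 1 in each of the other lists, against 8.33% of all genes.

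Marker genes of other cell types were read beside these results. None was called in either training comparison, where 0% of all genes were called, so this says nothing about the markers. Of 10 tendon markers, Kera alone was called, between labels in trained libraries, where 5.98% of all genes were called. In labelled WT trained against sedentary libraries 4 of the 10 were at an unadjusted p under 0.05, against 8.33% of all genes. All 4 were higher in trained libraries, and the median of the 10 was 0.35. Between labels in sedentary libraries 3 were at that level, all higher in labelled strNrip1-/-, against 16.3% of all genes. In trained libraries 3 were, all lower in labelled strNrip1-/-, against 21.1%. The medians were 0.31, with 9 of 10 above 0, and -0.11, with 7 of 10 below 0. In the interaction all 10 were below 0, with a median of -0.39, and 2 were at that level, against 7.76% of all genes. The markers of fibroblasts and fibro-adipogenic progenitors, 11 tested, summed to 602 to 817 FPKM per library, with Gsn the most abundant. Ranges were 668 to 746 in labelled WT sedentary and 602 to 817 in labelled WT trained libraries, and none was called. Under the strNrip1-/- label they were 680 to 815 in sedentary and 663 to 699.5 in trained libraries. The median difference was 0.07 for training in labelled WT, with 7 of 11 above 0. It was -0.11 for training in labelled strNrip1-/- and -0.14 between labels in trained libraries, each with 9 of 11 below 0. Between labels in trained libraries, 1 of 10 endothelial markers (Tie1) was called higher in labelled strNrip1-/-. So were 2 of 10 pericyte and smooth muscle markers (Pdgfrb and Kcnj8), against 5.98% of all genes. The call of Kcnj8 held in 8 of 12 fits without 1 library, with an adjusted p of up to 0.0722 without labelled strNrip1-/- trained replicate 2, and that of Tie1 in 10 of 12, with up to 0.0648 without replicate 3 of that group. With only the 6 libraries compared, both were lost (0.055 and 0.0567). Actn3, as 1 of 12 markers of fast myofibers, was called lower in both training states, against 3.51% (sedentary) and 5.98% (trained) of all genes. In trained libraries the endothelial markers summed to 141 to 164 FPKM under the WT label and 175 to 180.5 FPKM under the strNrip1-/- label. No gene was called in the 5 comparisons on the lists for Schwann cells, adipocytes, macrophages, satellite cells or blood. Of all genes, 3.51% (sedentary) and 5.98% (trained) were called between labels, and 0% in the training comparisons and the interaction. In labelled WT trained against sedentary libraries all 9 tested Schwann cell markers had a difference below 0, with a median of -0.42 and sums of 79.5 to 107.5 FPKM against 113 to 160.7 FPKM, and so had all 5 tested blood markers, with a median of -0.59. Of the Schwann cell markers 5 were at an unadjusted p under 0.05, all lower in trained libraries, against 8.33% of all genes. In labelled strNrip1-/- trained against sedentary libraries 7 of the 9 had a difference above 0, with a median of 0.22. In the interaction all 9 were above 0, with a median of 0.64. All 6 tested adipocyte markers had a difference above 0 between labels in sedentary libraries, with a median of 1.14. The part of any of these cell types in the collagen values was not tested.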

How the data were processed

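Libraries of EDL total RNA were not stranded, and reads of genes that overlap on opposite strands cannot be assigned to either. Transcripts were quantified by the authors with Salmon (version 1.10.2 per the submitters' processing notes) on mm10, summed them with tximport and tested them with DESeq2 (1.44.0). The authors deposited FPKM for each gene in each library. The table also holds 8 columns with the authors' log2 fold changes and adjusted p-values, which were not used. How FPKM was derived and which annotation was used are not given in the sources used here.

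FPKM is not a count, so values were taken as log2(FPKM + 0.5). Genes averaging 0.5 FPKM or more, 12744 in number, were fitted with 4 group means over all 12 libraries in limma 3.58.1 (R 4.3.3; lmFit, contrasts.fit, eBayes with a mean-dependent prior). All tests were two-sided, and p-values were adjusted by Benjamini-Hochberg over all genes of a contrast. A gene was called at an adjusted p under 0.05 and a fold change above 1.2, or by the adjusted p alone for the interaction. This scale understates the change of low genes. Nothing in the sources says that libraries of a group came from separate mice, so p-values measure the spread between these libraries. No pair of replicates shared an identical value above 0. The fit was tested on simulated data. Values in every library are given for the 10 most abundant chains and for the 3 with the largest difference in each contrast, except Col24a1, given by range. Of the called genes on the other lists, Fkbp14, Kera and Tgfbr1 have values for each trained library, and the others have none. The chains, lists and rules were chosen with earlier results of these data known.

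Depth was estimated from 1613 genes with a single transcript over 1500 nt. At the best scale of each library, 98.9% to 99.7% of low values came within 0.15 of whole fragments. For a 2 kb gene, 3 fragments, taken as the floor, correspond to 0.0509 to 0.0741 FPKM, for counting error only. Coordinates are 1-based on GRCm38, and gene structure was read from the longest complete coding transcript in GENCODE M21. Glycine codons are GGN. The genome sequence was not used. A total of 23 alternatives were run for the main contrasts.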

Additional observations from a re-analysis of the deposited data

How the results depend on the processing

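The count of collagen chains called was 0 in each of the 5 comparisons and moved as follows. In labelled WT trained against sedentary libraries it was 2 with a filter at a mean of 5 FPKM, 1 with libraries rescaled to the same sum, 2 with the sum of nuclear genes, 2 with quantile normalization and 1 with the replicate number as a block. In labelled strNrip1-/- trained against sedentary libraries it was 1 under the same-sum rescaling, and between labels in sedentary libraries it was 2 under the nuclear-gene rescaling. Each averaged contrast, chosen after seeing the data, called 1. Leaving out 1 library gave counts of 0 to 2 in labelled WT trained against sedentary, 0 to 2 between labels in trained libraries, and 0 to 0 in the other 3. In 103 of 118 combinations of comparison and alternative the count stayed at 0. Over the alternatives for labelled WT trained against sedentary other than the averaged contrast (where they were 0.71 and 0.45), the difference of Col1a1 stayed within 0.96 to 1.14 and that of Col1a2 within 0.71 to 0.84, with adjusted p from 0.0204 to 0.314 and from 0.0267 to 0.314, the highest both without labelled WT sedentary replicate 3.

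Correlations of same-numbered deviations ran from -0.052 to 0.195, and no pairing of the libraries by replicate number was assumed. With 3 libraries a group these correlations cannot settle whether a weak pairing exists. With the block, Col1a1 in labelled WT was at an adjusted p of 0.0475, and 4 genes in all were called there, against 0. Of all genes, the 447 called between labels in sedentary libraries became 163 without labelled WT sedentary replicate 1, 222 without replicate 2, 216 without replicate 3 and 260 without labelled strNrip1-/- sedentary replicate 1, and 166 with only the 6 libraries compared. The 762 called in trained libraries became 385 without labelled WT trained replicate 1 or 3, 333 and 315 without labelled strNrip1-/- trained replicates 2 and 3, and 445 with only the 6 libraries compared. For labelled strNrip1-/- trained against sedentary, the same-sum rescaling called 150 genes against 0, and other alternatives called at most 5. For labelled WT the count rose from 0 to at most 30, without labelled WT trained replicate 1, and the 15 called for training averaged over labels became 1 to 190, the highest without that library. The split of all calls is set by scaling: 54.8% were higher in labelled strNrip1-/- among sedentary libraries, against 18.6% with the same sum and 82.7% with the nuclear-gene sum, and 53.7% among trained libraries, against 80.9% and 75.8%. The same-sum rescaling moved the median of all genes by more than 0.1 in the sedentary comparison of labels (to -0.14) in labelled strNrip1-/- trained against sedentary (to 0.16) and in the interaction (to 0.20). Relative to the median of all genes the collagen median differed little, at 0.09 in the first under both scalings.

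With 3 libraries a group and few fragments behind the low chains, the 8 chains under 0.5 FPKM were not tested.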

Other observations

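The 8 chains below the level of testing add values that the comparisons do not use. Col4a3 and Col4a4, which code chains of the type IV network of kidney and lung and lie head to head on chromosome 1, were at 0.198 to 0.408 and 0.167 to 0.363 FPKM over the 12 libraries, and Col4a5 on chromosome X, their partner chain, at 0.198 to 0.719 FPKM. All 3 lay well above 0.0741 FPKM, the highest level that 3 fragments on a 2 kb gene would give in any library. Exons of Col4a3 share 563 bases with a transcript on the opposite strand, and those of Col9a3 share 234 bases with Tcfl5, so that part of their values could belong to either gene.

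Col26a1 was at 0.215, 1.01 and 1.06 FPKM in labelled WT sedentary libraries and at 0.218 to 0.510 FPKM in the other 9. Col9a3, a chain of the cartilage collagen type IX, was at 0.0851 to 0.675 FPKM in labelled WT sedentary libraries and at 0.0819 FPKM or less in labelled WT trained ones, 1 of which is listed at 0. Col17a1 was at 0.4004 FPKM in labelled WT sedentary replicate 1 and 0.531 FPKM in labelled strNrip1-/- sedentary replicate 2, and at 0.164 FPKM or less in the other 10 libraries. Col28a1 was at 0.130 to 0.406 FPKM and Col9a2, a partner of Col9a3, at 0.0662 to 0.328 FPKM over the 12 libraries. None of these patterns was tested.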
